A study of Mus musculus with 8 samples.

Results

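A set of 7 genes was followed across CD8+ T cells sorted from mouse melanomas. The ubiquitin ligase genes Cblb, Itch, Rnf128 and Dtx1 and the diacylglycerol kinase genes Dgka and Dgkz hold back T cell receptor signalling. The receptor gene Crtam was followed with them. The members were every probe of the bead array that carries one of these 7 names, in any letter case, which gave 11 of 25697 probes and 6 of 17830 gene names. The array carried 2 probes each for Cblb, Rnf128 and Dgka, 3 for Dgkz, and 1 each for Dtx1 and Crtam. No probe was found for Itch by name, by older name or by accession. Of the 6 genes with a probe, 5 passed the filter on low signals and were tested, and Rnf128 did not.

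The cells came from female C57BL/6 mice bearing tumors of B16.SIY.dsRed, a melanoma line made to express the model antigen SIY and a red fluorescent protein, on day 14 of growth. Tumors of 10 mice were pooled, per the series' design text, and no cells or mice were treated. All 4 populations were sorted on surface protein as CD8+ cells. Double-positive cells carried the costimulatory receptor 4-1BB and the inhibitory receptor LAG3, LAG3+ cells carried LAG3 without 4-1BB, PD-1+ cells carried the inhibitory receptor PD-1 with neither of the others, and triple-negative cells carried none of the 3. The labels leave PD-1 unstated for the double-positive and LAG3+ cells. Each population had 2 arrays, numbered experiment 1 and experiment 2, so every p-value here measures the spread between pools of animals and not between single mice.

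In a T cell that receives antigen signal without costimulation, or receives it for too long, a group of inhibitory proteins is known to accumulate and to make the cell unresponsive, a state called anergy. The ligases CBL-B, ITCH and GRAIL (the Rnf128 product) attach ubiquitin to signalling proteins near the receptor and so remove or silence them. Deltex1, the Dtx1 product, is a ligase first known from the Notch pathway and is a target of the transcription factor NFAT in mouse T cells. The kinases DGKα and DGKζ convert diacylglycerol, the lipid messenger that activates RasGRP1 and protein kinase C theta, into phosphatidic acid, and so damp the Ras pathway. CRTAM is a surface receptor of activated CD8+ T cells and natural killer cells that binds a nectin-like ligand.

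Between 5522 and 9044 probes were detected per array (detection p under 0.05), fewest on the PD-1+ arrays, and across genes the 2 arrays of a population had r = 0.934 in double-positive, 0.928 in LAG3+, 0.771 in PD-1+ and 0.898 in triple-negative cells. The PD-1+ pair thus differed most from each other. The probe for Cd8a was detected on no array. The T cell genes Cd3e and Cd8b1 were detected on all 8, and their changes against triple-negative cells lay between -0.13 and 0.42 on the log2 scale. The genes of the sorted receptors are a check of the labels and not a result. Lag3 was 29.0-fold higher in double-positive, 26.1-fold in LAG3+ and 18.1-fold in PD-1+ cells than in triple-negative cells, although the PD-1+ cells were sorted as lacking surface LAG3. Tnfrsf9, which encodes 4-1BB, was 15.6-fold, 6.47-fold and 5.55-fold higher in the same order. It passed the threshold in double-positive cells alone (adjusted p of 0.0228, 0.117 and 0.0842, limma). Pdcd1, which encodes PD-1, was not detected on either triple-negative array and was at least 1.55-fold, 1.42-fold and 1.28-fold higher in that order, with no call past the threshold.

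The regulatory DNA of the 2 genes with the largest changes, Dtx1 and Dgka, and of Cblb, whose arrays in double-positive cells lay on the other side of triple-negative cells, is shown here. Each window runs from 250 bases before to 50 bases after an annotated start site, on the gene's own strand, and is credited to RefSeq, assembly GRCm38.p6. Of the 7 genes, 5 had at least 1 window in that table: 4 for Dgka, 2 for Dgkz and 1 each for Cblb, Rnf128 and Dtx1. Capitals mark exact matches, on either strand, to short motifs of factors known to act on such genes. The motif letters searched were TGGAAA for NFAT, TGANTCA for AP-1, GCGNGGGCG for EGR factors, TAAACA for FOXO factors and TGGGAA for RBPJ, the DNA-binding partner of Notch. Windows of 2 Dgka start sites are given, since its first and last windows hold different matches.
Dtx1, chr5:120711620-120711919, minus strand: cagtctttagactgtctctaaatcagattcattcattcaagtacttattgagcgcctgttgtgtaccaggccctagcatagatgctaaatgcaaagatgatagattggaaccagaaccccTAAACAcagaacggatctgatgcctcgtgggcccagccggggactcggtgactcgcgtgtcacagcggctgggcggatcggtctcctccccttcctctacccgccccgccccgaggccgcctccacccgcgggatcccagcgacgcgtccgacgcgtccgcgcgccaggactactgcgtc
Dgka, first window, chr10:128745035-128745334, minus strand: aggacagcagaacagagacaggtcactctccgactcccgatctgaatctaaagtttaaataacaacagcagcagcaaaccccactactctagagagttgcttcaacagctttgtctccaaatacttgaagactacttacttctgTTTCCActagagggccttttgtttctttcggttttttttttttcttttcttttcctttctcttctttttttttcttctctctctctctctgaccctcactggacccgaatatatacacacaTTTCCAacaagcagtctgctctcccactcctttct
Dgka, last window, chr10:128737563-128737862, minus strand: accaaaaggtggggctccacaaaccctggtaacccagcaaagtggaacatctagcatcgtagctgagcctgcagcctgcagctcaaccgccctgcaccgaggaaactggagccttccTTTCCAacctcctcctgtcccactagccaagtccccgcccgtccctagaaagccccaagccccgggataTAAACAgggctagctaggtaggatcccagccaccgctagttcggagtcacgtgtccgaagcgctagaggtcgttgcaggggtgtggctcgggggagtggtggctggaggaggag
Cblb, chr16:52031299-52031598, plus strand: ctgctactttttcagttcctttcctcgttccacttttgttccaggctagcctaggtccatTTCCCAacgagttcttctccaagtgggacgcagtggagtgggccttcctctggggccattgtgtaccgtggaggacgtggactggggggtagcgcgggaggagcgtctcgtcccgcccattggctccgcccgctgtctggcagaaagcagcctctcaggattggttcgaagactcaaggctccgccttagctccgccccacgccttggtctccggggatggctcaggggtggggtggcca

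The Dtx1 window held 1 match, the FOXO motif, beginning 130 bases before the start site. The first Dgka window held 2 NFAT matches, both on the opposite strand, and the last held 1 NFAT and 1 FOXO match. The Cblb window held 1 match to the RBPJ motif on the opposite strand. The second Dgka window, not printed, held 1 NFAT and 2 RBPJ matches, and the third Dgka window, both Dgkz windows and the Rnf128 window held none of the 5 motifs. Such matches are common: of 32851 windows in the table, 21.43% held the NFAT motif, 7.808% the AP-1 motif, 5.552% the EGR motif, 13.44% the FOXO motif and 25.56% the RBPJ motif. A match is given as a description of the letters in the window, not as a binding site.

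Dtx1, on chromosome 5 (120680203 to 120711867 in GRCm38.p6), was the 1 member that passed the test, and it was lower in double-positive than in triple-negative cells. Its unnormalized intensity was 86.4 and 89.5 in double-positive cells (experiments 1 and 2), 87.3 and 83.3 in LAG3+ cells, 97.9 and 82.1 in PD-1+ cells, and 340.1 and 175 in triple-negative cells. The probe was above background on both triple-negative arrays, on both PD-1+ arrays and on double-positive array 2, and on neither LAG3+ array. Both triple-negative arrays lay above all 6 others. After normalization the level was 4.40 ± 0.31 in double-positive, 4.23 ± 0.01 in LAG3+, 5.93 ± 0.51 in PD-1+ and 7.28 ± 0.39 in triple-negative cells (log2, SD, n = 2 each). A level of about 4.2 is that of a probe without signal, since an offset of 16 was added to every intensity.

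Dtx1 fell by 2.87 ± 0.39 (log2, standard error) in double-positive against triple-negative cells, which is 7.33-fold, with an adjusted p of 0.0288 from limma. The drop was -2.82 in experiment 1 and -2.93 in experiment 2. With the experiment number as a replicate block the adjusted p was 0.0295. The gene ranked 41 of 7893 by p in that comparison, where 0.938% of genes passed the test in either direction and 0.532% passed as lower. Dtx1 passed in 11 of 20 alternative settings, with adjusted p between 0.00894 and 0.181 and a change between -3.15 and -1.70. Leaving out either double-positive, either LAG3+ or either triple-negative array ended the call, with adjusted p between 0.0938 and 0.181 and a change of -3.15 to -2.60. Without PD-1+ array 1 or array 2 it was 0.0143.

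In LAG3+ against triple-negative cells the Dtx1 difference was of the same size, -3.05 ± 0.39, and missed the threshold by little (adjusted p of 0.0510 from limma, 0.0513 with the replicate block). Since neither LAG3+ array measured the probe above background, the level there is a bound: Dtx1 was at least 7.07-fold lower than in triple-negative cells. Fewer genes passed in this comparison, 0.152% of all tested. Dtx1 passed here in 5 of 20 alternative settings, with a change between -3.32 and -1.77. Some of those settings leave out PD-1+ arrays, whose spread enters the pooled estimate. Outside the runs that left out a single array, the adjusted p ran from 0.0203 to 0.267 (limma). In PD-1+ against triple-negative cells Dtx1 had a difference of -1.35 ± 0.39, -1.43 in experiment 1 and -1.26 in experiment 2, with an adjusted p of 0.178. When arrays were scaled by their medians in place of quantiles, that difference was -2.54.

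Among the receptor-bearing populations the order of Dtx1 levels was PD-1+, double-positive, LAG3+. Double-positive cells differed from PD-1+ cells by -1.53 ± 0.39 (adjusted p of 0.143), and LAG3+ cells by -1.70 ± 0.39, a level at least 2.78-fold lower than in PD-1+ cells (adjusted p of 0.170, limma). Neither difference passed the test, although the arrays did not overlap in either. Under median scaling they were -0.52 and -0.61, so the bound holds for quantile-normalized values alone. Double-positive and LAG3+ cells, neighbours at the low end, differed by 0.17 ± 0.39, with a 95% interval of -0.74 to 1.09. These comparisons share arrays: all with triple-negative cells use the same 2 triple-negative arrays.

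**Figure D1:**
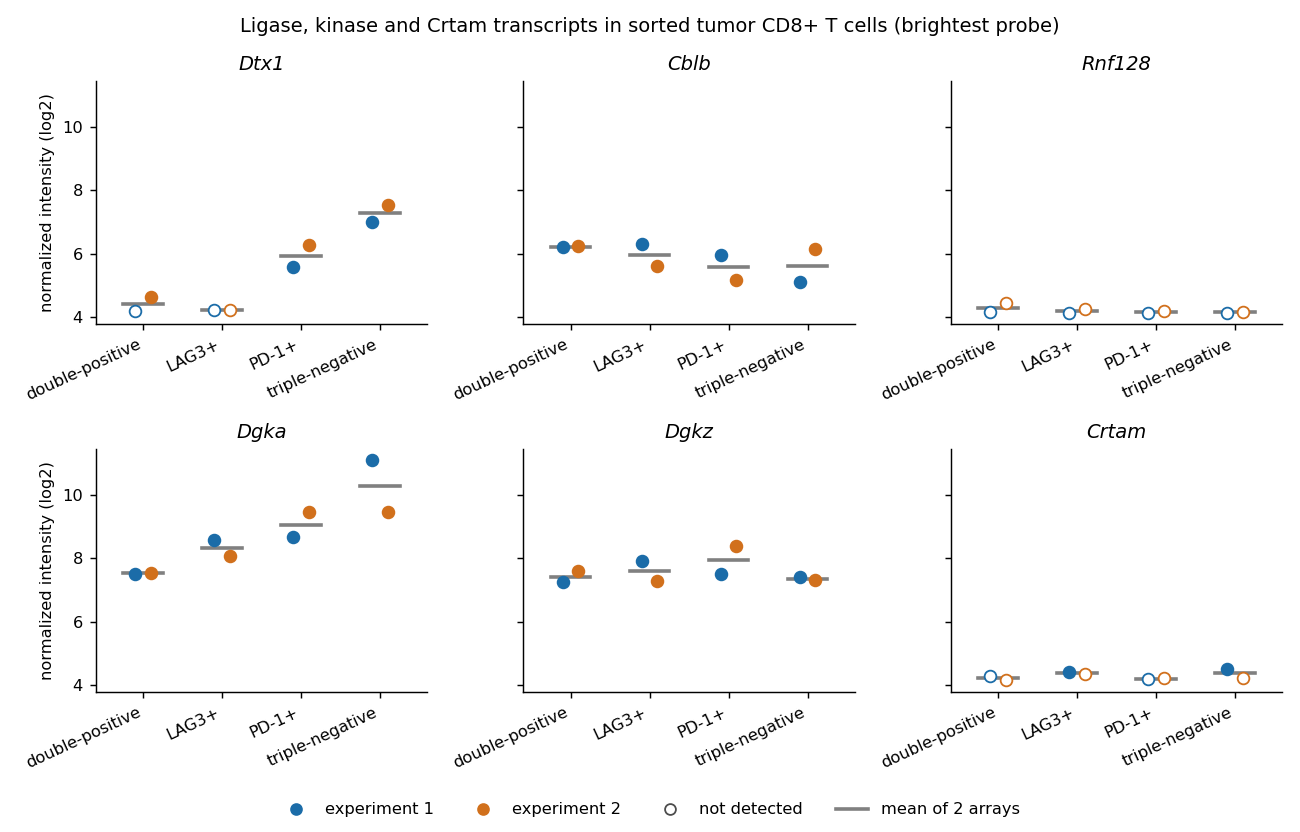
Normalized intensity (log2, y axis) of the brightest probe of 6 genes on each of the 8 arrays, by sorted population (x axis). Points are arrays, coloured by experiment, open where the probe was not detected, and bars are means of 2 arrays. Dtx1 and Dgka were highest in triple-negative cells, Cblb and Dgkz overlapped between most populations, and Rnf128 and Crtam lay near the background level.

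In bulk samples such as these, a smaller share of cells with a transcript and less transcript per cell cannot be told apart. Dtx1 is known to be expressed in B cells as well as in T cells, so B cell markers are given beside it. Of 6 B cell markers on the array, Cd79a, Ms4a1 and Pax5 were detected on no array. Cd79b was detected on both arrays of LAG3+, PD-1+ and triple-negative cells and on no double-positive array. Its change was -1.97 ± 0.53 in double-positive, -0.49 ± 0.53 in LAG3+ and 1.80 ± 0.53 in PD-1+ cells against triple-negative cells (adjusted p of 0.162, 0.963 and 0.187, limma). The summed level of the 6 was 108 to 113 in double-positive, 124 to 175 in LAG3+, 373 to 374 in PD-1+ and 144 to 201 in triple-negative cells. Cd79b and Dtx1 were thus both low in double-positive cells, while in LAG3+ cells Dtx1 was not detected and Cd79b was, and in PD-1+ cells Cd79b was higher and Dtx1 lower than in triple-negative cells. The part of B cells in the Dtx1 values was not tested.

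Markers of other cell types also differed between populations, with no marker past the test. The 7 melanoma markers summed to 308 to 2394 in double-positive, 527 to 2299 in LAG3+, 830 to 4503 in PD-1+ and 211 to 239 in triple-negative cells. The melanoma sum was thus lowest in the population with the highest Dtx1 and Dgka. The sum of the 8 fibroblast and endothelial markers was highest there, at 245 to 256. It was 154 to 156 in double-positive, 159 to 194 in LAG3+ and 179 to 184 in PD-1+ cells. The 11 macrophage and monocyte markers summed to 271 to 280 in double-positive, 420 to 547 in LAG3+, 1200 to 3496 in PD-1+ and 412 to 731 in triple-negative cells. In that order the 8 dendritic cell markers summed to 253 to 380, 296 to 540, 1040 to 1421 and 368 to 878. The 5 natural killer cell markers summed to 175 to 227, 116 to 157, 218 to 565 and 159 to 202. Among these, Klrb1c was detected on both triple-negative arrays and on no other. The 5 neutrophil markers summed to 93 to 98, 95 to 97, 92 to 101 and 93 to 192. The 6 CD4 and regulatory T cell markers summed to 690 to 1600 in double-positive and 1216 to 1951 in LAG3+ cells. They summed to 456 to 1035 in PD-1+ and 612 to 615 in triple-negative cells. Of them, Cd4 was detected on both triple-negative arrays and on no other, and Foxp3 and Ctla4 on all 8. In double-positive against triple-negative cells 3 of the 4 tested were higher, with Ctla4 at 0.91 ± 0.62, and Cd4 was lower, at -0.53 ± 0.32. The 9 CD8 T cell markers had sums between 15052 and 18124 over the 8 arrays, but single markers differed more. In double-positive against triple-negative cells Lck was at -0.95 ± 0.43 and Cd2 at -0.93 ± 0.33. Of 8 tested there, 5 were lower and 3 higher, up to 0.48 ± 0.31 for Cd3g. Cd247 was detected on no PD-1+ array. The part of these cells in the values of the members was not tested.

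Cblb, on chromosome 16 (52031230 to 52208047), encodes the ligase that raises the need for CD28 costimulation. Its brighter probe was detected on all 8 arrays, at an unnormalized intensity of 182.4 and 128.9 in double-positive, 184.5 and 97.8 in LAG3+, 107 and 77 in PD-1+, and 135.3 and 109.8 in triple-negative cells. Experiment 1 was brighter than experiment 2 in every population before normalization. After it, the level was 6.23 ± 0.03, 5.97 ± 0.49, 5.57 ± 0.57 and 5.62 ± 0.73 (log2, SD, n = 2 each) in the same order. Double-positive arrays were above both triple-negative arrays, but the difference of 0.61 ± 0.49 did not pass (adjusted p of 0.738 from limma). It was 1.11 in experiment 1 and 0.11 in experiment 2, and the 95% interval ran from -0.54 to 1.76. The difference was 0.35 ± 0.49 in LAG3+ and -0.05 ± 0.49 in PD-1+ cells, with overlapping arrays in both. The second Cblb probe was detected on no array, with intensities from 72.7 to 89.8, so it bears on no comparison.

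The probes for Rnf128, on the X chromosome (139563340 to 139673145), gave no signal above background on any array. The brighter one read 84.9 and 87.8 in double-positive, 83 and 83.8 in LAG3+, 80.6 and 73 in PD-1+, and 87.3 and 81.8 in triple-negative cells. The other ranged from 73.1 to 90.9. GRAIL transcript was therefore not measurable with these probes in any of the 4 populations, and no fold is given. Of the ligase set, then, 1 gene passed a test, 1 was measured with no call, 1 was below detection and 1, Itch (chromosome 2, 155133481 to 155226855), was not analysed here.

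Dgka, on chromosome 10 (128720131 to 128745084), encodes DGKα, the isoform known to fall on T cell activation and to be high in anergic T cells of the mouse. Its normalized level was lowest in double-positive cells and highest in triple-negative cells. Before normalization the brighter probe read 359.1 and 223.7 in double-positive, 600.4 and 225 in LAG3+, 315.3 and 237.6 in PD-1+, and 3967.8 and 547.3 in triple-negative cells. The second probe read 211.4 and 129.6, 304.6 and 158.6, 203.5 and 158.5, and 2381.5 and 310.3 in that order. Both probes put triple-negative array 1 far above all others, and triple-negative array 2 above its experiment's other arrays before normalization. Across the 8 arrays the probes followed each other at r = 0.991 on the log2 scale, a description over arrays that share experiments and normalization.

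After normalization Dgka had a level of 7.53 ± 0.02 in double-positive, 8.32 ± 0.34 in LAG3+, 9.05 ± 0.55 in PD-1+ and 10.28 ± 1.17 in triple-negative cells (log2, SD, n = 2 each). The triple-negative arrays differed from each other by 1.66, a gap exceeded by 5.56% of tested genes, while the double-positive arrays nearly coincided. Against triple-negative cells the difference was -2.75 ± 0.58 in double-positive cells, 6.73-fold, and did not pass the test (adjusted p of 0.0907 from limma, 0.0998 with the replicate block). It was -3.59 in experiment 1 and -1.91 in experiment 2, and both double-positive arrays lay below both triple-negative arrays. The second probe gave -3.05 ± 0.59 with an adjusted p of 0.0834 in a fit of every detected probe. Dgka passed in 1 of 20 alternative settings, the one with array weights, at an adjusted p of 0.0359. Leaving out triple-negative array 1 left a change of -1.92, and leaving out array 2 a change of -3.58.

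The other differences of Dgka went the same way and were smaller. LAG3+ cells differed from triple-negative cells by -1.95 ± 0.58, -2.54 in experiment 1 and -1.36 in experiment 2 (adjusted p of 0.326, limma). PD-1+ cells differed by -1.22 ± 0.58, which was -2.44 in experiment 1 and 0 in experiment 2, where both arrays ranked the probe at the same place (adjusted p of 0.397). The order of levels was thus triple-negative, PD-1+, LAG3+, double-positive, and no neighbours in it differed past the threshold: the steps were -0.80 ± 0.58 from double-positive to LAG3+ cells and -0.73 ± 0.58 from LAG3+ to PD-1+ cells. Double-positive cells lay below PD-1+ cells by -1.53 ± 0.58 (adjusted p of 0.292). Under median scaling the difference from PD-1+ cells was -0.05 in double-positive cells and turned to 0.41 in LAG3+ cells, and that of PD-1+ from triple-negative cells was -2.63. The place of PD-1+ cells in the order thus depended on the scaling.

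**Figure D2:**
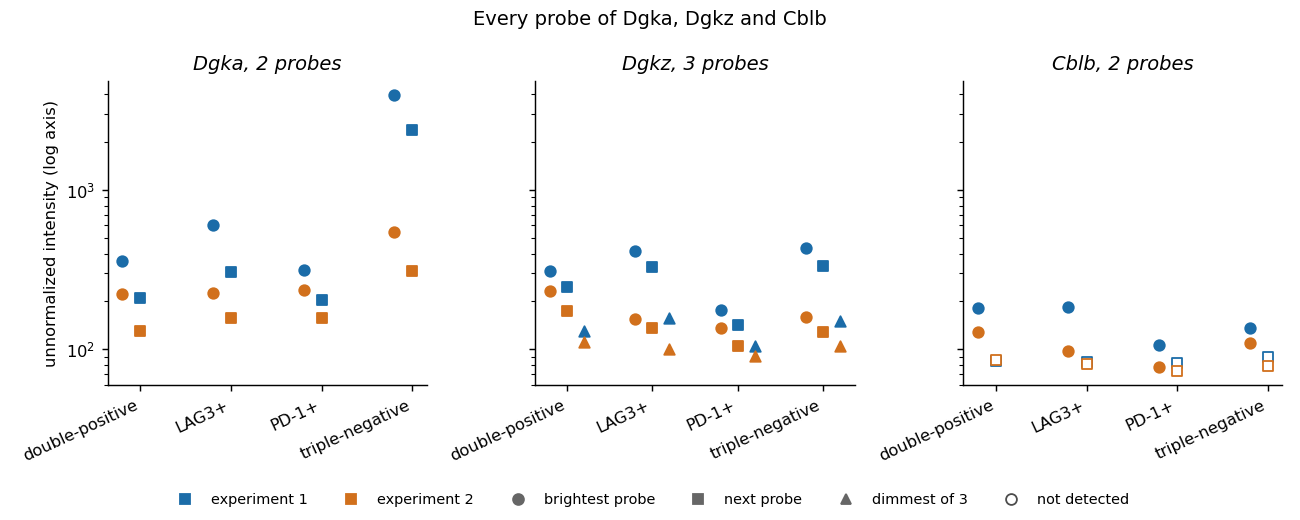
Unnormalized intensity (log axis) of every probe of Dgka, Dgkz and Cblb on the 8 arrays, by population. Symbols tell the probes apart, colours the experiments, and open symbols were not detected. Both Dgka probes peaked on triple-negative array 1, at 3967.8 and 2381.5, while the brightest Dgkz probe ran from 135.9 to 432.2.

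Dgkz, on chromosome 2 (91932822 to 91976443), encodes DGKζ, the isoform credited with most of the control of Ras signalling in T cells. It was measured by 3 probes on all 8 arrays, and no difference between populations passed the test. The brightest probe read 309.7 and 232.5 in double-positive, 414.2 and 156 in LAG3+, 177.4 and 135.9 in PD-1+, and 432.2 and 159.2 in triple-negative cells. The normalized level was 7.43 ± 0.25, 7.60 ± 0.43, 7.94 ± 0.63 and 7.36 ± 0.06 in the same order (log2, SD, n = 2 each). PD-1+ cells had the highest normalized level and the lowest raw intensity, and their difference from triple-negative cells, 0.58 ± 0.41, turned to -0.90 under median scaling. The differences from PD-1+ cells turned to 1.04 in double-positive and 0.87 in LAG3+ cells, against -0.52 and -0.34 with quantiles.

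Against triple-negative cells Dgkz differed by 0.06 ± 0.41 in double-positive cells, with a 95% interval of -0.92 to 1.04, and by 0.24 ± 0.41 in LAG3+ cells (adjusted p of 0.992 and 0.995, limma). These intervals allow changes of about 1 log2 unit in double-positive cells, so they do not show that the gene is unchanged. The other 2 probes gave 0.05 ± 0.37 and -0.07 ± 0.44 in double-positive cells, in the fit of every detected probe. Pairs of Dgkz probes followed each other at r = 0.721 to 0.951 over the 8 arrays. The 2 kinases thus differed in the size of their values, -2.75 for Dgka and 0.06 for Dgkz, but a difference between 2 genes was not tested.

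Crtam, on chromosome 9 (40972798 to 41004628), was near background on every array. It read 90.1 and 82.1 in double-positive, 92.6 and 84.8 in LAG3+, 82.4 and 73.1 in PD-1+, and 104.8 and 83.5 in triple-negative cells. The probe was detected on LAG3+ array 1 and triple-negative array 1, the minimum for entering the test. Normalized levels lay between 4.16 and 4.51 on the log2 scale. The difference was -0.14 ± 0.29 in double-positive, 0.01 ± 0.29 in LAG3+ and -0.16 ± 0.29 in PD-1+ cells against triple-negative cells. At this signal a difference in Crtam was not detectable in any comparison.

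**Figure D3:**
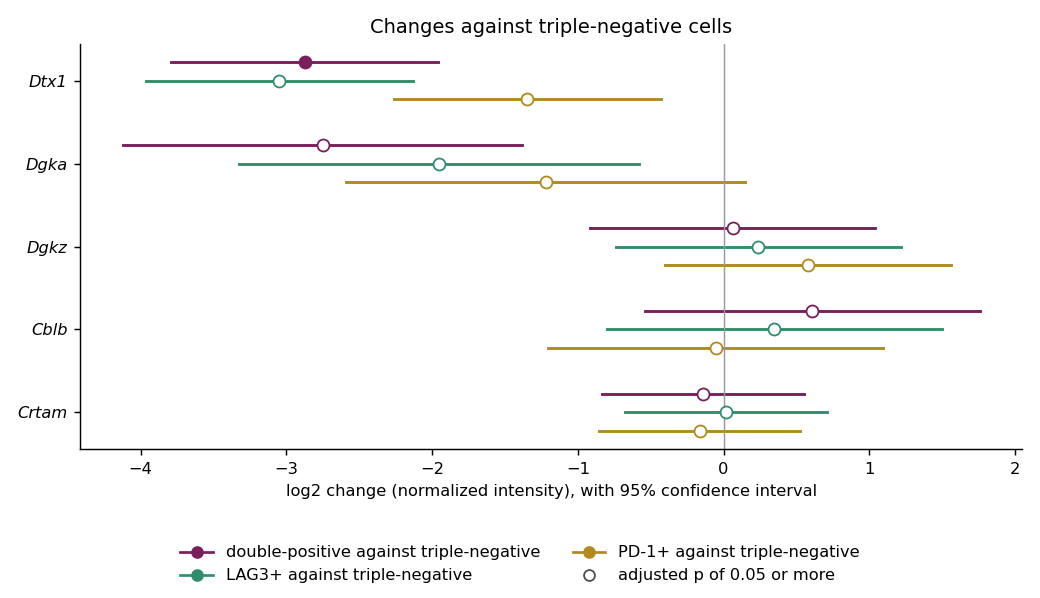
Log2 change (x axis) of the 5 tested genes in double-positive, LAG3+ and PD-1+ cells against triple-negative cells, with 95% confidence intervals as lines. Filled points passed an adjusted p of 0.05. The point for Dtx1 in double-positive cells, at -2.87, is the one that passed. The intervals of Dgkz, Cblb and Crtam, and that of Dgka in PD-1+ cells, include 0.

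Counted over the 5 tested members, 1 of 5 passed by limma when double-positive were set against triple-negative cells, and none in the other comparisons. At an unadjusted p under 0.05 the counts were 2 in double-positive, 2 in LAG3+ and 1 in PD-1+ cells against triple-negative cells, 0 in double-positive against LAG3+ cells, 2 in double-positive against PD-1+ cells and 1 in LAG3+ against PD-1+ cells. The shares of all 7893 genes at that unadjusted p were 13.6%, 9.32%, 14.8%, 2.64%, 14.7% and 11.5% in the same order of comparisons. With adjustment, 0.938% passed in double-positive, 0.152% in LAG3+ and 0.532% in PD-1+ against triple-negative cells (0.304% as lower in PD-1+ cells). The share was 0% in double-positive against LAG3+, 0.0507% in double-positive against PD-1+ and 0.076% in LAG3+ against PD-1+ cells. The median change of the 5 was -0.14 in double-positive, 0.01 in LAG3+ and -0.16 in PD-1+ cells against triple-negative cells, beside -0.01, -0.01 and -0.04 over all tested genes. Among the other comparisons it was -0.16 in double-positive against LAG3+, -0.52 in double-positive against PD-1+ and -0.34 in LAG3+ against PD-1+ cells, beside 0.01, 0.05 and 0.05 over all tested genes. The median of 5 genes rests on its middle gene, which was Crtam in all 3 comparisons with triple-negative cells and Dgkz or Crtam elsewhere.

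Arrays without overlap are frequent with 2 per group. Dtx1 and Dgka were below triple-negative cells on both arrays in double-positive cells, a pattern that 21.7% of all tested genes shared, and in LAG3+ cells, where 19.6% did. Cblb was above triple-negative cells on both double-positive arrays, as were 22.6% of genes. In PD-1+ cells Dtx1 lay below triple-negative cells on both arrays (22.3% of genes) and Dgkz above (17.6%). Between receptor-bearing populations, Dtx1 and Dgka were lower on both double-positive arrays than on both PD-1+ arrays (19.8% of genes) and Cblb higher (24.8%), Dtx1 and Dgka were lower in LAG3+ than in PD-1+ cells (17.9%), and Dgka was lower in double-positive than in LAG3+ cells (14.3%). Crtam is left out of these counts, since it was detected on 2 arrays and its other values are background.

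The genes around these 7 were followed in 9 lists, of 140 genes in all, of which 87 were tested, the 5 members included. In double-positive against triple-negative cells 2 of the 87 fell, Dtx1 and Nedd4l, where 0.532% of all tested genes passed as lower. None of the 87 rose, and 18 had an unadjusted p under 0.05, a threshold that 13.6% of all tested genes met. In PD-1+ against triple-negative cells 1 fell, Nedd4l, where 0.304% of all tested genes passed as lower. In LAG3+ against triple-negative cells none passed by limma, with 12 at an unadjusted p under 0.05 (9.32% of all genes). No listed gene passed in the comparisons among double-positive, LAG3+ and PD-1+ cells, where 2, 14 and 10 genes had an unadjusted p under 0.05 in double-positive against LAG3+, double-positive against PD-1+ and LAG3+ against PD-1+ cells. These counts out of 87 are near the shares of all genes, 2.64%, 14.7% and 11.5%.

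Nedd4l encodes a HECT ligase of the same family as ITCH, best known for its action on the epithelial sodium channel. Its unnormalized intensity was 115.1 and 88.2 in double-positive, 91.4 and 90.4 in LAG3+, 83.5 and 75.7 in PD-1+, and 362.1 and 158.1 in triple-negative cells, with the probe detected on 1, 1, 0 and 2 arrays in that order. As with Dtx1, both triple-negative arrays were above all others. Its change was -2.44 ± 0.38 in double-positive cells (adjusted p of 0.0451) and -2.76 ± 0.38 in PD-1+ cells (adjusted p of 0.0487, limma), a level at least 5.08-fold lower than in triple-negative cells. Both calls were lost with the replicate block, at adjusted p of 0.0566 and 0.0565, and the gene passed in 9 of 20 and 6 of 19 alternative settings.

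Around the ligase ITCH, the list of NEDD4 family ligases and adaptors had 9 of 13 genes tested. In double-positive against triple-negative cells 1 fell and none rose by limma, where 0.532% of all tested genes passed as lower. The list had 3 genes at an unadjusted p under 0.05 (13.6% of all genes) and a median change of -0.17. The activators Ndfip2 and Ndfip1, which open the folded HECT ligases, had values of 1.64 ± 0.67 and 0.41 ± 0.47, and the editing enzyme Tnfaip3 -1.14 ± 0.44. Of 14 substrates of CBL-B, ITCH and GRAIL, 12 were tested and none passed by limma. An unadjusted p under 0.05 was reached by 3 of them (13.6% of all genes). Their median was -0.66, with -2.79 ± 0.80 for Jun and -2.12 ± 0.48 for Junb, the AP-1 subunits that ITCH marks (adjusted p of 0.185 and 0.104). The kinase Zap70 was at 0.47 ± 0.42 and the phosphoinositide kinase subunit Pik3r1 at 0.81 ± 0.61.

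Of 13 genes of the CBL family and its partners 7 were tested and none passed by limma. In double-positive cells 1 had an unadjusted p under 0.05 (13.6% of all genes), and the median was -0.11. The adaptors Crk and Sla were at -1.21 ± 0.45 and -0.79 ± 0.46, and the phosphatase-like Ubash3a at 0.27 ± 0.46, with Cblb the highest of the list. The list of GRAIL regulators and related ligases had 6 of 14 genes tested, none past the threshold by limma. Of these 2 had an unadjusted p under 0.05 (13.6% of all genes), and the list's median was -0.64. Rnf167 was at -1.64 ± 0.46, Traf6 at -1.51 ± 0.84, Rnf150 at -0.16 ± 0.40 and Usp8, a deubiquitinase of GRAIL, at -0.10 ± 0.34.

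Around Dtx1, 14 of 23 genes of the Deltex family and the Notch relay were tested. Dtx1 was the 1 that fell, where 0.532% of all tested genes passed as lower. None rose, and 2 had an unadjusted p under 0.05 by limma (13.6% of all genes). Of the 14, 12 had values below 0, with a median of -0.71, beside -0.01 over all tested genes. Notch4 was at -1.84 ± 0.87, while Ncstn and Psen2, parts of the protease that cuts Notch, were at 0.88 ± 0.46 and 0.48 ± 0.69. Against triple-negative cells the list's median was -0.50 in LAG3+ and -0.37 in PD-1+ cells, with no call in either by limma. There 2 and 6 of 14 genes had an unadjusted p under 0.05, beside 9.32% and 14.8% of all tested genes.

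The diacylglycerol kinase family had 4 of 10 genes tested, none past the threshold. Besides Dgka and Dgkz these were Dgkg and Dgkh, at 0.69 ± 0.56 and 0.23 ± 0.33 in double-positive cells, each detected on 2 arrays. The list's median was 0.15, with Dgka the 1 gene below 0. Of 26 effectors of diacylglycerol and the Ras relay 19 were tested and none passed by limma. An unadjusted p under 0.05 was reached by 3 (13.6% of all genes). In this list 13 of 19 were below 0, with a median of -0.24, beside -0.01 over all tested genes. The kinase Prkd2, which binds diacylglycerol, came nearest, at -1.76 ± 0.35 (adjusted p of 0.0810), and the NF-κB adaptor Bcl10 was at -1.51 ± 0.94. The GTPases Hras and Nras were at 1.27 ± 0.46 and 1.04 ± 0.53.

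The list around CRTAM held nectin family ligands and receptors, not all of them partners of CRTAM itself, and its polarity partner. Of its 11 genes 6 were tested. In double-positive against triple-negative cells none passed by limma and none had an unadjusted p under 0.05. In double-positive against PD-1+ and in LAG3+ against PD-1+ cells 1 gene each did (14.7% and 11.5% of all genes). Values ran from -0.26 ± 0.57 for Pvr to 0.23 ± 0.44 for Scrib, the polarity protein that CRTAM binds, with Cd96 at -0.02 ± 0.31. Of 19 anergy regulators of the NFAT, EGR and Ikaros families 12 were tested and none passed by limma. An unadjusted p under 0.05 was reached by 3 of them in double-positive cells (13.6% of all genes), where the median was 0.03. The quiescence factors Foxo1 and Foxp1 were at -1.89 ± 0.43 and -1.73 ± 0.68, and the NFAT targets Rcan1 and Nr4a3 at 1.5 ± 1.11 and 0.72 ± 0.84.

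**Figure D4:**
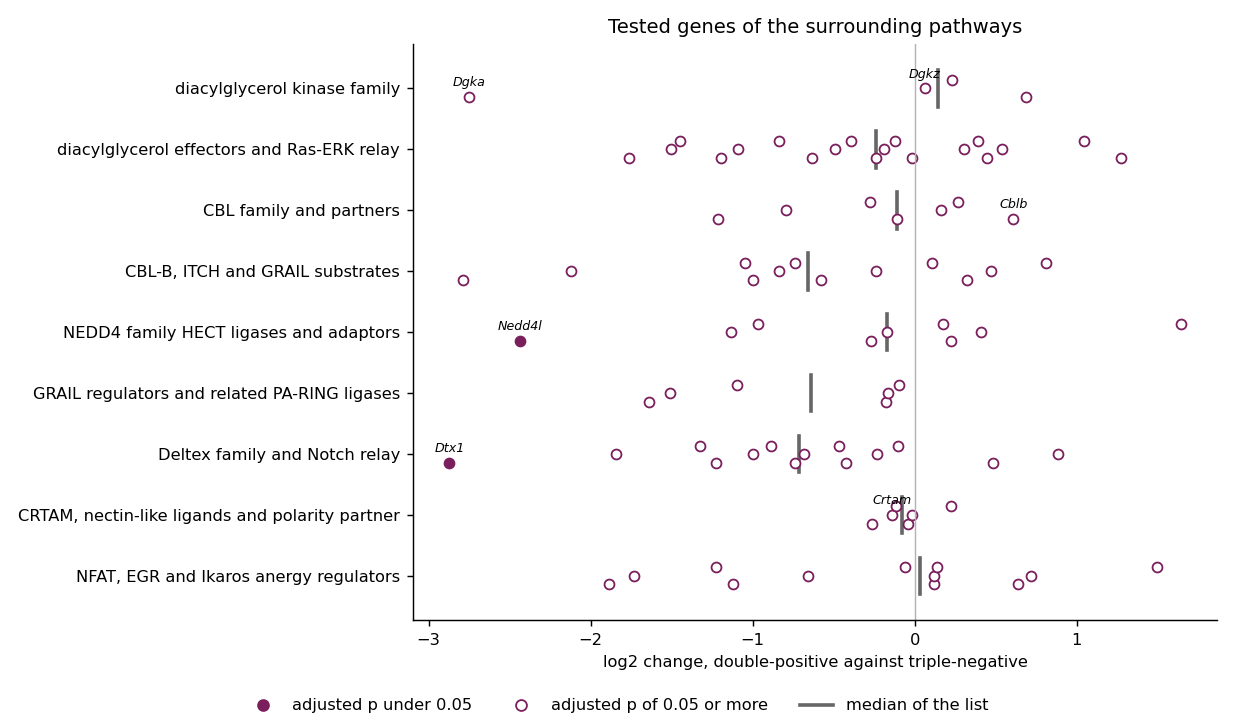
Log2 change in double-positive against triple-negative cells (x axis) of every tested gene of the 9 lists (rows). Filled points passed an adjusted p of 0.05 and grey bars are list medians. Dtx1 at -2.87 and Nedd4l at -2.44 are the 2 filled points, and Dgka at -2.75 lies apart from the other 3 diacylglycerol kinases.

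By likeness over the 8 arrays, the 3 genes nearest to each member were named by Pearson's r on normalized log2 values. The 8 arrays share 2 experiments and 4 populations, so r is a description. For Dtx1 these were Ppp1r15a (r = 0.977), Dusp11 (r = 0.976) and Klf2 (r = 0.971). Klf2, a transcription factor of resting T cells, had levels of 6.41 in double-positive, 6.95 in LAG3+, 8.29 in PD-1+ and 10.63 in triple-negative cells (log2). For Dgka they were Sgk1 (r = 0.976), Il7r (r = 0.972) and Clk1 (r = 0.961). Il7r, the interleukin-7 receptor of naive and memory T cells, had levels of 4.97, 5.89, 6.89 and 9.17 in the same order.

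Cblb was nearest to Pigf, Bag1 and Snrpd2 (r = 0.928 to 0.941), Dgkz to Lmo2, Fam89b and C4b (r = 0.943 to 0.966), and Crtam to Necap1, Hbb-bt and Zfp451 (r = 0.966 to 0.979). Lmo2, C4b, Hbb-bt and Zfp451 had levels near background, between 4.16 and 4.99, so their r with a member rests on small differences. Among the members themselves, Dtx1 and Dgka had r = 0.822 and Cblb and Dgka r = -0.71. Dtx1 with Dgkz and with Crtam had r of 0.05 and 0.003.

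**Figure D5:**
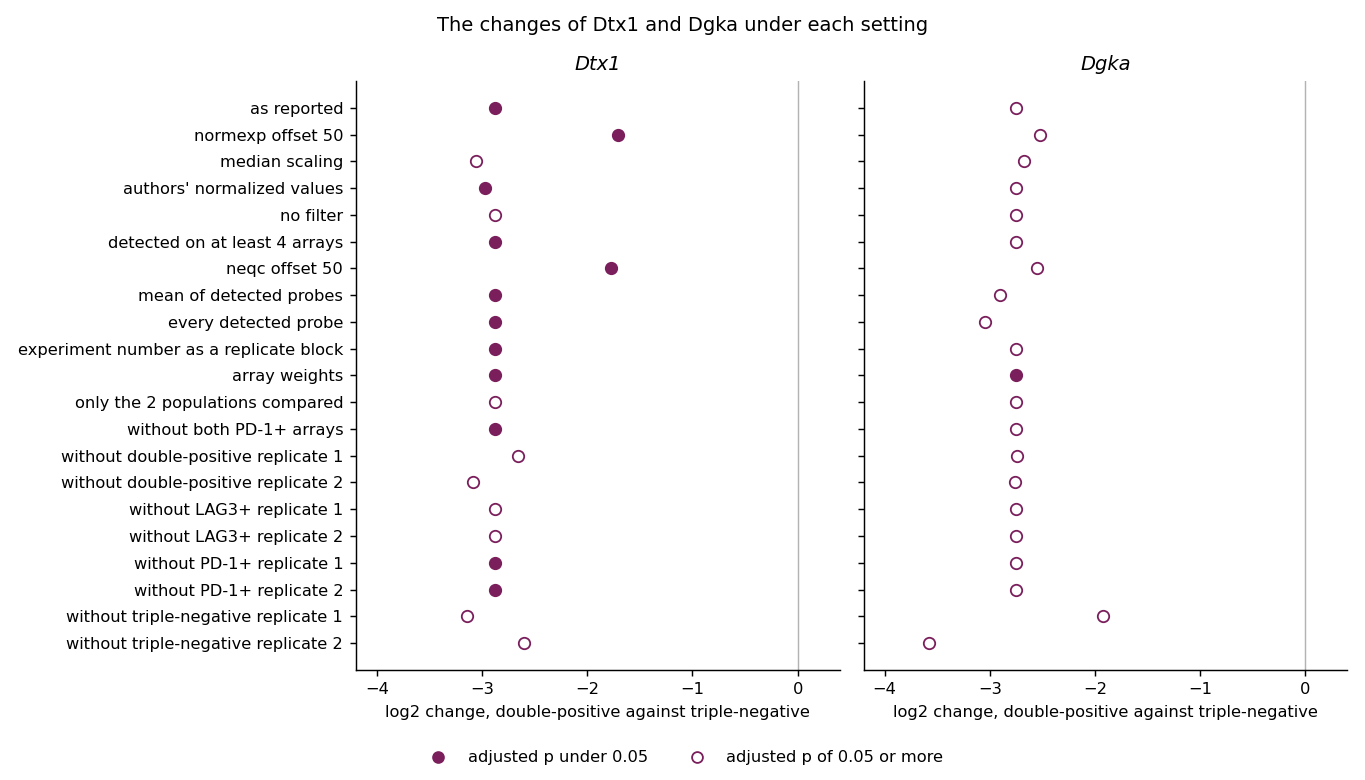
Log2 change of Dtx1 and Dgka in double-positive against triple-negative cells (x axis) as reported and under each of 20 alternative settings (rows). Filled points passed an adjusted p of 0.05. The direction was the same at every setting, Dtx1 passed in 11 of them and Dgka in 1.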

How the data were processed

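The 8 sorted samples gave total RNA for a 1-colour Illumina mouse bead array. The authors deposited an unnormalized intensity for every probe, with a detection p-value beside it per the file headers; no source used here names the scanner software. A second deposited table holds the authors' normalized intensities, linear in scale and made by unstated steps, and served as an alternative. With limma 3.58.1 (R 4.3.3), the function neqc corrected the deposited intensities for background, inferring negative controls from the detection p-values, added an offset of 16, quantile-normalized them and took log2, so changes of dim genes are compressed. Names were updated through RefSeq (GRCm38.p6). Each gene was represented by its brightest probe. Genes detected (p under 0.05) on 2 or more of the 8 arrays were tested, which kept 7893 of 17830 names. The 6 comparisons were fitted with lmFit and eBayes over all 8 arrays (4 residual degrees of freedom), two-sided, with Benjamini-Hochberg adjustment within each comparison and a threshold of 0.05. The script was tested on simulated data. Precision is limited by the number of arrays: the median standard error of a change was 0.45, and an exact test of 2 arrays against 2 cannot go below p = 0.333. A probe below background on both arrays of a population gets a bound there ("at least"), from each array's lowest detected signal or the probe's own if higher. Titles number the experiments, so same-numbered arrays may be paired. The reported fit held a mean per population and no pairing term. Pairing entered as the replicate block of an alternative fit. Deviations of same-numbered arrays from the population means correlated at r = 0.092 to 0.222. Members, lists and tests were chosen with earlier results of these data known. Named genes were every member probe, per list the genes past the threshold and the 2 highest and 2 lowest changes in double-positive against triple-negative cells, the 3 genes most like each tested member, and the sorting markers.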

Additional observations from a re-analysis of the deposited data

How the results depend on the processing

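Set against triple-negative cells, double-positive cells had 1 member past the threshold. It became 0 under median scaling, 0 with no filter and 0 with only the 2 populations in the fit, 2 with array weights, and 0 to 1 when 1 array was left out. In LAG3+ against triple-negative cells the count of 0 became 1 with the mean of detected probes, 1 with array weights and 1 without both PD-1+ arrays, and was 0 to 1 when 1 array was left out. With the experiment number as a replicate block the paired counts were 1 and 0, and among members no call changed; the 2 Nedd4l calls were lost. In the other 4 comparisons the count stayed at 0 under every alternative run. Over all tested genes, 74 passed in double-positive against triple-negative cells, against 0 under median scaling, 42 with no filter, 229 with array weights, 212 without PD-1+ array 1 or 2, 17 with either LAG3+ array left out, 1 when triple-negative array 2 was dropped, and 0 when its partner or a double-positive array was. In LAG3+ against triple-negative cells 12 passed, and 0 with the block; in PD-1+ against triple-negative cells 42 passed, 28 with the block, 0 with array weights, 295 without PD-1+ array 1 and 127 without PD-1+ array 2. The cause was not tested. Without the filter, 17830 names were tested in place of 7893. Median scaling moved the median of all genes to -0.72 in PD-1+ and -0.14 in LAG3+ cells against triple-negative cells.

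Of 1213 recomputed changes, 34 reversed, none past the threshold. Under median scaling Dgkz was -0.0234 in LAG3+ and -0.90 in PD-1+ against triple-negative cells, 0.17 in double-positive against LAG3+, 1.04 in double-positive against PD-1+ and 0.87 in LAG3+ against PD-1+ cells. Crtam was -0.14 in LAG3+ against triple-negative, Dgka 0.41 in LAG3+ against PD-1+ and Cd96 0.034 in double-positive against triple-negative cells. With every detected probe Dgkz was -0.0690 in double-positive against triple-negative cells. Leaving out 1 array at a time gave, in double-positive against triple-negative cells, -0.24 to 0.77 for Ubash3a, -0.34 to 0.15 for Usp8, -0.18 to 0.14 for Cd96, -0.11 to 0.24 for Dgkz, -0.0747 to 1.70 for Pik3r1, -0.15 to 0.60 for Scrib, -0.41 to 1.85 for Nr4a3, -0.29 to 0.0036 for Crtam, -0.56 to 0.034 for Pvr and -0.49 to 0.16 for Rnf150. It gave -0.0463 to 0.0919 for Crtam in double-positive against PD-1+, and in double-positive against LAG3+ cells -0.0441 to 0.39 for Dtx1, -0.48 to 0.13 for Dgkz and -0.0899 to 0.61 for Cblb. In LAG3+ against triple-negative cells the ranges were -0.0666 to 0.55 for Dgkz, -0.13 to 0.16 for Crtam and -0.17 to 0.87 for Cblb, in PD-1+ against triple-negative cells -0.57 to 0.47 for Cblb, and in LAG3+ against PD-1+ cells -0.00028 to 0.80 for Cblb and -0.79 to 0.11 for Dgkz. Where leaving out an array left 1 in a population, that array was assumed to vary like the others. Signal over background limits Crtam, detected on 2 arrays, and Rnf128, detected on 0, and neither can be ranked between populations.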

Other observations

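One further probe was listed under Dgka in the platform annotation but under another name in the deposited table, so it was not counted among the members. It read 80.4 and 85.3 in double-positive, 82.3 and 81.9 in LAG3+, 93.7 and 72.4 in PD-1+, and 88.5 and 83 in triple-negative cells, and was detected on PD-1+ array 1 alone of the 8 arrays. The 2 Dgka probes used here were detected on all 8.

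The triple-negative arrays differed from each other by different amounts for different members. Experiment 1 minus experiment 2 was 1.66 for Dgka, -1.04 for Cblb, -0.55 for Dtx1, 0.29 for Crtam and 0.08 for Dgkz on the normalized log2 scale. Of all tested genes, 5.56% had a larger gap than Dgka, 18.2% than Cblb and 44.1% than Dtx1.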
